A study of Mus musculus with 198 samples.

Results

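The genes described here encode the proteins of the mitochondrial ribosome. They were taken as every probe whose symbol in the array annotation starts with Mrpl (large subunit) or Mrps (small subunit) followed by a digit, which gave 110 of the 25697 probes on the array, for 76 of 16593 annotated genes. Of these, 68 probes of 47 genes belong to the large subunit and 42 probes of 29 genes to the small subunit. The results rest on 94 probes of 69 genes (56 large subunit, 38 small subunit) that passed detection on 20% or more of a tissue's arrays, for both tissues. The other 16 probes were not kept, most of them detected in 0 arrays, and 7 genes had no kept probe (Mrpl15, Mrpl19, Mrpl21, Mrpl32, Mrpl45, Mrps14 and Mrps36).

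The samples were whole hippocampus from 99 strains (100 arrays) and whole striatum from 97 strains (98 arrays) of male mice of the Hybrid Mouse Diversity Panel, a set of inbred strains used for genetic mapping. The labels name the strain and no transgene. The paper reports that all strains of the panel went through a fear conditioning test. It does not say outright that the arrayed animals were the tested ones. The panel holds recombinant inbred (RI) strains, which fix random mixtures of the genomes of a parental pair: 30 BXD strains from B6 and DBA, 28 AXB and BXA strains (AXB/BXA) from B6 and AJ, and 11 BXH strains from B6 and C3H (10 in striatum). The remaining 30 strains in hippocampus and 29 in striatum are other inbred strains, among them the parents and CAST, a wild-derived strain. A total of 97 strains had an array of each tissue. A tissue of a strain was measured on 1 array (the 2 arrays of B6Cc3 were averaged), so there is no replicate error within a strain, and every spread given is between strains. The values are log2 signal intensities after background correction and quantile normalization within a tissue, which leaves levels comparable between strains of a tissue but not between the tissues.

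The mitochondrial ribosome translates the few messenger RNAs of the mitochondrial genome, which encode core subunits of the respiratory chain and of the ATP synthase. Its RNAs come from the mitochondrial genome, while all of its proteins are encoded in the nucleus, made in the cytosol and imported. The large subunit forms the peptide bond and the small subunit holds the messenger RNA and reads its codons. Neurons depend on oxidative phosphorylation, so these genes are expressed throughout the brain.

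The promoters of 67 of the 76 genes were at hand in RefSeq (GRCm38.p6), each as 250 bases before to 50 bases after a start, and genes with several starts gave several promoters. Motifs known from promoters of nuclear genes for mitochondrial proteins were searched on both strands: CCGGAAG (ETS factors, among them GABP), the palindromic NRF1 motif and AAGATGGCG (YY1). Of the 75 promoters of 69 genes whose RefSeq symbol has the same form, 26 (34.7%) held the ETS motif, against 8.86% of all 32851 promoters, 13 (17.3%, against 4.6%) held the NRF1 motif and 8 (10.7%, against 1.4%) held the YY1 motif. At least 1 motif was found in 41 promoters (54.7%, against 13.6%). The promoters below are shown as examples from genes with large differences between strains in what follows, chosen because they hold a motif. Mrpl10 and Mrpl50 held none of the 3 motifs in this window. Capitals mark the motifs, which did not overlap: ETS in Mrpl27, YY1 in Mrpl35, ETS on the reverse strand and then YY1 in Mrps27, and ETS at both places in Mrpl43. A match describes the letters of the reference strain and no binding was measured.
Mrpl27, chr11:94653541-94653840 (+ strand): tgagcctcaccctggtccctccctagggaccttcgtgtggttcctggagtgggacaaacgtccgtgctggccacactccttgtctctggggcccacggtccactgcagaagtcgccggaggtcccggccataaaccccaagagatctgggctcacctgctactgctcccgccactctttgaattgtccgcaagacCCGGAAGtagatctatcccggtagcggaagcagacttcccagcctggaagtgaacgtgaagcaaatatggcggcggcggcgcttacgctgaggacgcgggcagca
Mrpl35, chr6:71823735-71824034 (- strand): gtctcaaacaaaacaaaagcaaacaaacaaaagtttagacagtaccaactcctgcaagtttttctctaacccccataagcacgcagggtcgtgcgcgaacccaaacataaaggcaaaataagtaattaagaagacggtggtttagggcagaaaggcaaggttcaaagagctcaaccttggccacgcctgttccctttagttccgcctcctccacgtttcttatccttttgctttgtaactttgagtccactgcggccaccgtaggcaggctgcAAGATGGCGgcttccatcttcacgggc
Mrps27, chr13:99344536-99344835 (+ strand): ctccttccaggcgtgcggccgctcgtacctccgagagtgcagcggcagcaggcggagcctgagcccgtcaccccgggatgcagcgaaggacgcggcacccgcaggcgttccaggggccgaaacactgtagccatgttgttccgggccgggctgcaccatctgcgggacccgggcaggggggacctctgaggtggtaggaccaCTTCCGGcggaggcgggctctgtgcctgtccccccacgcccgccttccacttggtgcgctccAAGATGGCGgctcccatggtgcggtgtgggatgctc
Mrpl43, chr19:45006393-45006692 (- strand): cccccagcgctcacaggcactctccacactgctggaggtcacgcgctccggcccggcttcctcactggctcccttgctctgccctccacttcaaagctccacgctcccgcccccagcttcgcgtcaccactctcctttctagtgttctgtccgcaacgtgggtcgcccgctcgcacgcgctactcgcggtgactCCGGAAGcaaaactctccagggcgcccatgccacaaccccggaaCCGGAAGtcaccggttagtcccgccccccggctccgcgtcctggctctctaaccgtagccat

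Some arrays stood apart over all probes. The AXB19b hippocampus array correlated with the other hippocampus arrays at a median rank correlation of 0.615 and detected 22.4% of probes, and the SM and NZW striatum arrays had 0.856 and 0.890, while every other array reached at least 0.914 in hippocampus and 0.919 in striatum. AXB19b was the strain farthest from the median in hippocampus for 49 of the 94 member probes (65.7% of all kept probes), and SM in striatum for 38 (38.8% of all). The KK striatum array was low for striatal neuron markers, with a mean of 9.22 over 6 genes against a median of 13.02 over strains. Levels of probes across the table did not match best between the arrays of the same strain name for 12 strains, among them AXB15 and AXB19, whose arrays matched crosswise, and C3H, the BXH parent. The striatum array of C3H shared 83.4% of levels with the hippocampus array of C3H and 87.3% with that of CBA, so the levels read for C3H carry this doubt. Results are therefore given with and without AXB19b, SM and NZW where this changed them.

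Strain differences in mitochondrial ribosomal protein genes correlated between hippocampus and striatum for 62 of 94 probes over all strains and for 36 over the RI strains alone. Across the 97 strains, these 62 probes were positively correlated (Pearson's r, tested two-sided with Benjamini-Hochberg adjustment over all 11746 kept probes at a threshold of 0.05), which is 66% of members against 43.1% of all probes. Over the 68 RI strains the 36 probes were 38.3% of members, against 26.1% of all probes. AXB19b was among these RI strains, and the count without it was not computed. In AXB/BXA the median r over members was 0.11 with AXB19b and 0.25 without it (0.09 and 0.18 over all probes). Over all strains the count of negatively correlated members was 0 (0.111% of all probes). The median r was 0.32 over members and 0.19 over all probes. With Spearman's rho, 77 members were correlated (51.2% of all probes). The large and the small subunit had similar counts, 37 of 56 with a median r of 0.32 and 25 of 38 with a median r of 0.32.

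These counts rested little on CAST and C3H, but did depend on the arrays that stood apart. Without CAST 60 members were correlated (39.4% of all probes), without C3H 63 (42.9%) and without both 60 (39.2%). Without AXB19b, SM and NZW the count was 82 of 94 (57.9% of all probes) and the median r was 0.43 over members, against 0.27 over all probes. Without CAST and C3H as well it was 78 (54.3%), and without the 12 strains whose arrays did not match best it was 82 (58.8%). An r above 0.5 was found for 22 members (15.2% of all probes) and above 0.8 for 11 (3.82%), against 10 without CAST and C3H (3.45%). Leaving out CAST and C3H lowered r by over 0.2 for 2 members (1.81% of all probes). Within the sets, without AXB19b, SM and NZW, the median r over members was 0.32 in BXD (0.21 over all probes), 0.25 in AXB/BXA (0.18), 0.28 in BXH (0.26) and 0.58 in the other inbred strains (0.39). Tests across strains treated the strains as independent, although they share ancestry.

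**Figure D1:**
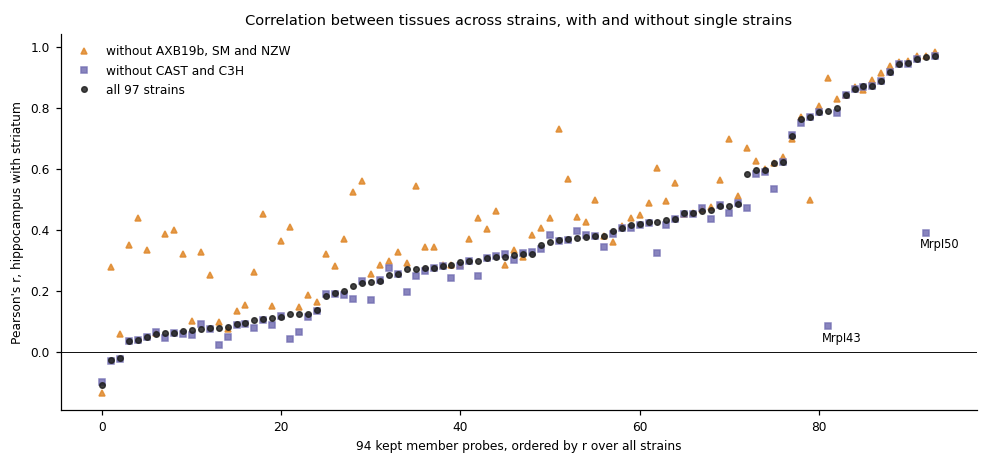
Pearson's r between hippocampus and striatum for each of the 94 kept member probes (y axis), ordered by r over all 97 strains (x axis), with circles for all strains, squares without CAST and C3H, and triangles without AXB19b, SM and NZW. The squares lie over 0.2 below the circles at Mrpl43 and Mrpl50 only, while many triangles in the lower part of the order lie above their circles.

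A group of the member probes fell into separate low and high levels across strains. A normal mixture called 2 levels when the means lay at least 3 SD apart, the fit gained over 10 in the Bayesian information criterion, with 6 or more strains in the smaller level. This was so for 14 of 94 probes in hippocampus (6.11% of all probes), 13 in striatum (8.59%) and 13 in both (4.21%). They measured Mrpl10, Mrpl14, Mrpl27, Mrpl35, Mrpl48 (3 probes), Mrpl55, Mrps10, Mrps12, Mrps17, Mrps23 and Mrps27, and in hippocampus alone Mrps9. Strains kept their level from tissue to tissue in 1214 of 1261 combinations of strain and probe (96.27%). In the whole table a strain kept its level for a median of 96.97% of the 495 probes with 2 levels in both tissues. Of the 80 members without 2 levels, 48 were still correlated between tissues (60%, against 40.9% of such probes in the whole table), and 68 (85%, against 57.1%) without AXB19b, SM and NZW.

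**Figure D2:**
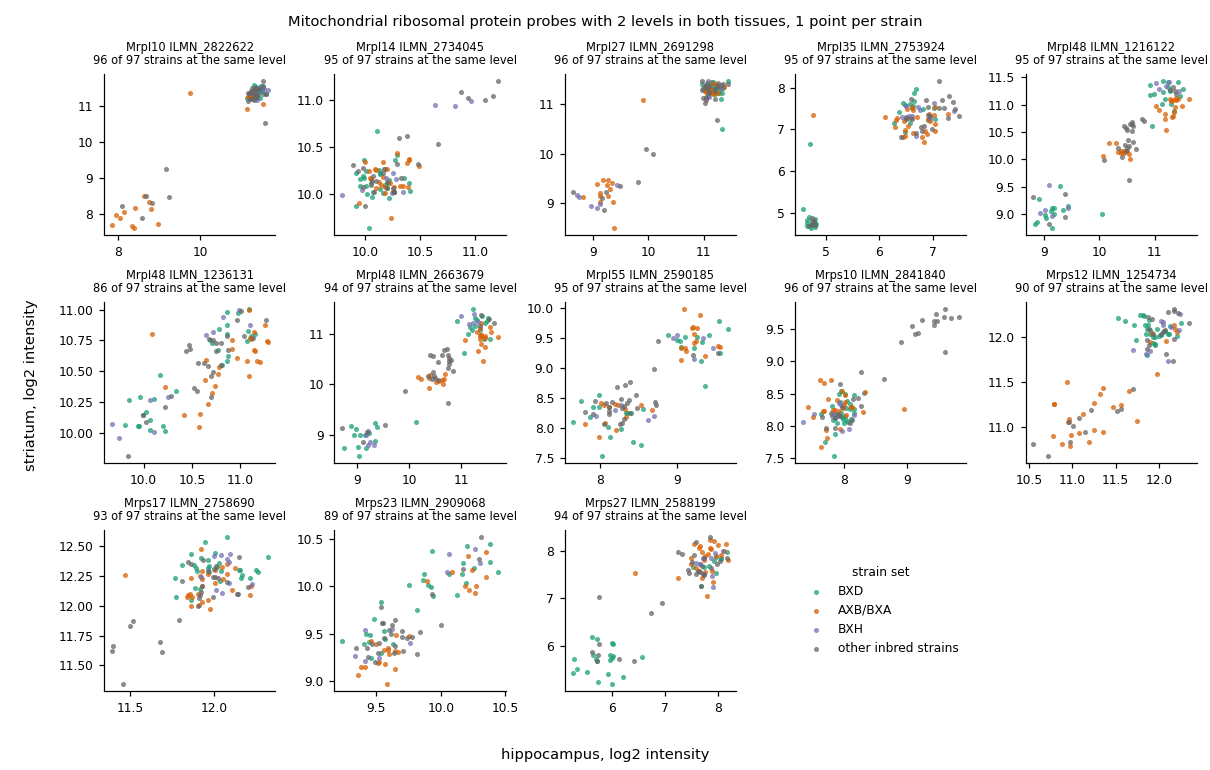
Log2 intensity in striatum (y axis) against hippocampus (x axis) for the 13 member probes with 2 levels in both tissues, 1 point per strain coloured by strain set. Most strains lie in the lower left or the upper right cluster of a panel, and the clusters are widest apart for Mrpl10, Mrpl27, Mrpl35, Mrpl48 and Mrps27.

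Among the large subunit genes, Mrpl10 had widely separated levels in both tissues. Its protein anchors the stalk that recruits translation factors. At probe ILMN_2822622 the 18 low strains had 7.86, 8.63 and 9.75 in hippocampus (lowest, median and highest) and the 81 high strains 11.13, 11.33 and 11.64. In striatum the 17 low strains had 7.63, 8.15 and 9.25 and the 80 high strains 10.51, 11.33 and 11.68. The levels did not overlap and their medians differed 6.51-fold in hippocampus and 9.05-fold in striatum. The tissues placed 96 of 97 strains at the same level, the exception being AXB19b (two-sided Fisher's exact test, p = 4.76e-18). AJ was low (8.70 in hippocampus, 8.50 in striatum), while B6, DBA, C3H and CAST were all high, between 11.28 and 11.60.

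Mrpl27, whose bacterial counterpart reaches into the peptidyl transferase centre, behaved alike in both tissues, with low strains that partly coincided with those of Mrpl10. In hippocampus the 28 low strains had 8.64, 9.23 and 10.08 and the 71 high strains 10.97, 11.15 and 11.44, a 3.78-fold difference of the medians. In striatum the 27 low strains had 8.49, 9.21 and 10.09 and the 70 high strains 10.50, 11.31 and 11.48 (4.31-fold). Again 96 of 97 strains kept their level, with AXB19b as the exception (Fisher's exact test, p = 3.8e-23). AJ and C3H were low, B6 and DBA high, and CAST lay at the upper end of the low level (9.96 in hippocampus and 10.09 in striatum). AKR, B6Cc3, CBA, CE and LG were low as well in both tissues. Of these low strains, AJ, AKR, CBA and LG were also low for Mrpl10, while NOD and NZW were low for Mrpl10 but not for Mrpl27.

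Mrpl35, a protein of the large subunit with a bacterial counterpart, was not detected in any low strain. At probe ILMN_2753924 the 20 low strains in hippocampus had 4.57, 4.74 and 4.82 and the 79 high strains 6.11, 6.71 and 7.51. In striatum the 18 low strains had 4.65, 4.76 and 5.09 and the 79 high strains 6.65, 7.30 and 8.16. The low strains thus have only an upper bound, set for each array by the lowest signal among its detected probes, and the high mean was at least 1.35-fold above it in hippocampus and at least 2.09-fold in striatum. In hippocampus 74 of the 79 high strains were themselves detected, and in striatum all 79. A total of 95 of 97 strains kept their level (Fisher's exact test, p = 1.13e-17), with AXB19b and BXD42 as exceptions. DBA and C3H were low, and B6, AJ and CAST high.

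Mrpl48, a protein of the large subunit, had 3 kept probes that all showed 2 levels. At ILMN_1216122 the 23 low strains in hippocampus had 8.64, 9.12 and 9.43 and the 76 high strains 10.06, 11.02 and 11.62 (3.73-fold). In striatum the 24 low strains had 8.75, 9.06 and 9.63 and the 73 high strains 9.99, 10.82 and 11.43 (3.38-fold). Here 95 of 97 strains kept their level (Fisher's exact test, p = 8e-20), and the exceptions were BXD24a and NZW. Probe ILMN_2663679 gave 3.94-fold and 3.65-fold differences, with 94 of 97 strains at the same level. Probe ILMN_1236131 gave the smaller differences of 0.79 and 0.59 log2, with 86 of 97. DBA and C3H were low at all 3 probes in both tissues and B6 was high.

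The high level of Mrpl48 was itself spread, and its strains kept their order in both tissues. Among the 73 strains high in both tissues at ILMN_1216122, r between tissues was 0.85. None of the AXB/BXA strains was low. They were split at the widest gap between neighbouring strains that left 6 or more strains on either side. In hippocampus this gap set 11 strains at 10.07 to 10.56 apart from 17 strains at 11.02 to 11.62. In striatum it set 11 strains at 10.02 to 10.30 apart from 17 strains at 10.53 to 11.11, and all 28 strains lay on the same side of the gap in both tissues. AJ had 10.67 in hippocampus and 10.19 in striatum, while B6 had 11.28 and 11.27. Probe ILMN_2663679 likewise placed all 28 strains on the same side, and ILMN_1236131 placed 19 of them so. This split was noticed after the values were seen and was not part of the level calls.

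Mrpl55 and Mrpl14 had smaller differences. Mrpl55, a protein with no bacterial counterpart, was low in 61 strains in hippocampus (7.64, 8.23 and 8.73) and high in 38 (8.75, 9.22 and 9.67). In striatum it was low in 60 (7.53, 8.31 and 8.76) and high in 37 (8.99, 9.45 and 9.99). The levels nearly touched in hippocampus, and the medians differed 1.99-fold there and 2.21-fold in striatum. B6 was high and DBA, AJ, C3H and CAST were low, and outside the RI sets the high strains in hippocampus were B6, C58 and I. A total of 95 of 97 strains kept their level (Fisher's exact test, p = 2.64e-24). Mrpl14, which lies where the subunits meet, was high in few strains, 10 in hippocampus (10.63, 10.92 and 11.21, against 9.79, 10.16 and 10.49 in the 89 low strains) and 9 in striatum (10.67 to 11.20, against 9.65 to 10.61 in the 88 low strains). C3H was high and B6, DBA, AJ and CAST were low, and 95 of 97 strains kept their level (Fisher's exact test, p = 5.55e-10).

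Among the small subunit genes, Mrps27 encodes a protein of the pentatricopeptide repeat family, which binds RNA. In hippocampus the 29 low strains had 5.27, 5.77 and 6.74 and the 70 high strains 6.94, 7.73 and 8.18. In striatum the 26 low strains had 5.21, 5.73 and 6.18 and the 71 high strains 6.69, 7.76 and 8.29. The low level was close to background, with 3 of 29 low strains detected in hippocampus and 0 of 26 in striatum, so that the high mean was at least 2.68-fold above it in hippocampus and at least 2.84-fold in striatum. DBA was low and B6, AJ and C3H were high, and 94 of 97 strains kept their level (Fisher's exact test, p = 1.3e-20). The exceptions were AXB19b, CAST and SM.

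Mrps12, whose bacterial counterpart helps check the match of codon and transfer RNA, was low in 25 strains in hippocampus (10.55, 10.98 and 11.35) and high in 74 (11.47, 11.93 and 12.34). In striatum 32 strains were low (10.67, 11.08 and 11.49) and 65 high (11.59, 12.07 and 12.32). The differences were 1.93-fold and 1.99-fold, and 90 of 97 strains kept their level (Fisher's exact test, p = 3.32e-17). AJ and CAST were low and B6, DBA and C3H high. The 7 strains with unlike levels were all high in hippocampus and low in striatum, and included AXB15, AXB19 and AXB19a.

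Mrps10 and Mrps23 both had fewer strains at the high level than at the low level. Mrps10 was high in 16 strains in hippocampus (8.90, 9.44 and 9.82, against 7.34, 7.94 and 8.62 in the 83 low strains, 2.83-fold) and in 14 in striatum (9.15, 9.63 and 9.82, against 7.54, 8.21 and 8.84 in the 83 low strains, 2.67-fold). AXB19b alone differed between tissues (96 of 97 strains alike, Fisher's exact test, p = 5.36e-16). All 4 RI parents were low, and without AXB19b no RI strain was high, so every other high strain was 1 of the other inbred strains. Mrps23 was low in 68 strains in hippocampus (9.24, 9.57 and 9.90) and high in 31 (9.92, 10.21 and 10.44). In striatum 60 were low (8.97, 9.39 and 9.75) and 37 high (9.79, 10.13 and 10.52). The levels adjoined each other, the differences were 1.56-fold and 1.67-fold, and 89 of 97 strains kept their level (Fisher's exact test, p = 2.89e-17).

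Mrps17 and Mrps9 had the weakest levels. Mrps17 was low in 6 strains in hippocampus (11.39, 11.46 and 11.52, against 11.68, 11.97 and 12.32 in the 93 high strains). In striatum it was also low in 6 strains (11.35, 11.64 and 11.83, against 11.87, 12.24 and 12.58 in the 91 high strains). Only 4 strains were low in both tissues (93 of 97 alike, Fisher's exact test, p = 6.27e-05). The call in hippocampus was lost without AXB19b, SM and NZW and with the authors' processed values, that in striatum without CAST and C3H, and both with median centring. Mrps9 had 2 levels in hippocampus alone, with 8 low strains (9.44 to 9.78) and 91 high strains (9.80 to 10.67), and 2 strains were low in both tissues when striatum was split the same way (Fisher's exact test, p = 0.13). Its call was lost without CAST and C3H and with the authors' processed values, and without AXB19b, SM and NZW it was called in striatum as well. Median centring also ended the hippocampus calls of Mrpl55, Mrps23 and ILMN_1236131 of Mrpl48.

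The strains of the RI sets took the levels of their parents. Where the parents of a set differed in level, both levels appeared among the strains of the set for 19 of 20 combinations of probe and set in hippocampus and 20 of 21 in striatum. The exception in both tissues was Mrpl35 in BXH, where C3H was low but 0 of 11 strains in hippocampus and 0 of 10 in striatum were. Where the parents had the same level, both levels appeared in 5 of 19 combinations in hippocampus, 1 without AXB19b, SM and NZW, and in 1 of 18 in striatum. In BXD, 13 of 30 strains were low for Mrpl48 (ILMN_1216122) in hippocampus and 14 in striatum, and 20 of 30 were low for Mrps27 in both tissues. In AXB/BXA, 12 of 28 were low for Mrpl10 in hippocampus and 11 in striatum, and Mrps12 had 17 and 21. In BXH, 6 of 11 were low for Mrpl27 in hippocampus and 6 of 10 in striatum.

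**Figure D3:**
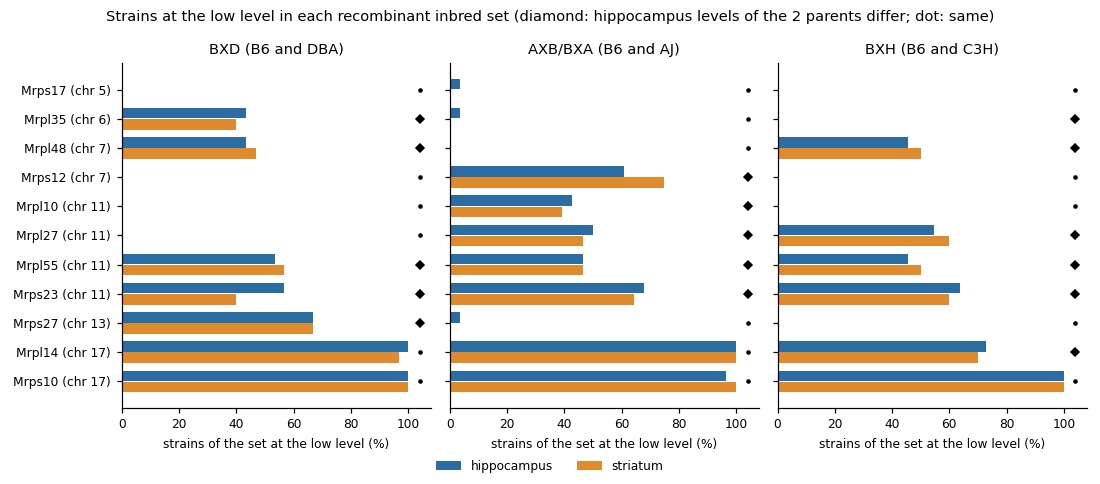
Share of the strains of each RI set at the low level (x axis, percent) for the genes with 2 levels in both tissues (y axis, with chromosome, Mrpl48 by ILMN_1216122), as bars for hippocampus and striatum. Diamonds mark sets whose parents differ in level in hippocampus and dots those whose parents do not, and the diamonds stand beside sets split between the levels except for Mrpl35 in BXH, while the sets with dots have at most 1 strain that differs from the rest.

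Mrpl10, Mrpl27, Mrpl55 and Mrps23 lie on chromosome 11 and shared levels within sets more often than genes on different chromosomes did. In AXB/BXA without AXB19b, 25 of 27 strains had the same level for Mrpl27 and Mrpl10 in each tissue, and 22 of 27 for Mrpl27 and Mrps23 in hippocampus and 23 of 27 in striatum. In BXH, 10 of 11 strains had the same level for Mrpl27 and Mrps23 in hippocampus and 10 of 10 in striatum. Over all pairs of genes that segregated in a set, the median share of strains with the same level was 71.5% for genes on 1 chromosome and 50% for genes on different chromosomes in hippocampus, and 72% and 48.3% in striatum. Mrpl55 shared its level with Mrpl10 in 14 of 27 strains only. These shares are a description and were not tested.

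Among the members without separate levels, both kept probes of Mrps7, a small subunit protein of the head domain, were correlated between the tissues, with r = 0.79 (rho = 0.75, permutation p = 1e-05 for both, the smallest that 100000 permutations can give) and r = 0.71 (rho = 0.65, permutation p = 1e-05 for both). Next came Mrpl13 (ILMN_2982200, r = 0.62), Mrpl47 (ILMN_2723579, r = 0.62), Mrps35 (r = 0.60) and Mrps18c (r = 0.58), each with a rho between 0.51 and 0.60 and a permutation p of 1e-05 for both measures. Without the 2 strains farthest from the hippocampus median r was 0.81 and 0.70 for Mrps7 and between 0.51 and 0.63 for these 4. The lowest r were those of Mrpl16 (r = -0.11, rho = -0.11), Mrps33 (ILMN_1214937, r = -0.03, rho = 0.22), Mrpl4 (r = -0.02, rho = 0.04), Mrpl53 (r = 0.04, rho = 0.25) and Mrpl43 (ILMN_2633805, r = 0.04, rho = 0.37), whose permutation p for r lay between 0.3 and 0.767. Without AXB19b, SM and NZW r was 0.28 for Mrps33, 0.35 for Mrpl53 and 0.44 for Mrpl43, but -0.13 for Mrpl16 and 0.06 for Mrpl4.

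Single strains set the size of the correlation for 5 members. When each strain was left out in turn, r fell by over 0.2 for 5 of 94 members (5.32%, against 2.86% of all probes). Mrpl50, a large subunit protein with no bacterial counterpart, had the highest r of any member without levels (0.97), most of which rested on CAST. CAST had 6.36 in hippocampus, where the other 98 strains had 11.15, 11.53 and 11.76 (lowest, median and highest). In striatum CAST had 4.99 and was not detected, and the other 96 strains had 11.27, 11.57 and 11.95. CAST was thus 35.7-fold below the mean of the others in hippocampus and at least 42.4-fold below in striatum. Without CAST r was 0.40 (adjusted p = 0.000304), and without CAST and C3H 0.39, and Spearman's rho over all strains was 0.44 (permutation p = 1e-05).

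Mrpl43 was the other member whose r moved by over 0.2 without CAST and C3H. At ILMN_2598222 CAST had 7.47 in hippocampus and 6.44 in striatum, against medians of 10.97 and 10.78 over the other strains. Only AXB19b (9.05) came near CAST in hippocampus, and in striatum the next strain was SM at 10.25. CAST was 11.2-fold below the mean of the others in hippocampus and 20.3-fold below in striatum. Over all strains r was 0.79 (rho = 0.21, permutation p = 0.00208 for r and 0.043 for rho), and without CAST and C3H it was 0.09. The other Mrpl43 probe, ILMN_2633805, showed no such distance, since CAST lay 0.03 from the median in hippocampus and -0.09 from it in striatum.

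The other 3 members each rested on another strain. For Mrpl52, NZW had 5.49 in hippocampus and 6.44 in striatum and was detected in neither, while the others had at least 9.56 and 9.42. The others were at least 16.5-fold higher on average in hippocampus and at least 11.8-fold in striatum, and r was 0.77 with NZW and 0.41 without. For Mrpl51 (ILMN_2645772), SWR had 5.11 and 5.59 and was not detected, while the others averaged at least 1.91-fold and 2.10-fold more, and r was 0.44 with SWR and 0.15 without. For Mrps33 (ILMN_3163302), KK had 11.87 and 11.63, while the others had at least 12.33 and 12.70, and r was 0.43 with KK and -0.06 without. The NZW and KK striatum arrays were among those that stood apart or were low for striatal markers, and in hippocampus the same strains were lowest for these probes. The part of these arrays in the values was not tested. Leaving out AXB19b raised r by over 0.2 for 5 further members (3.82% of all probes rose so without 1 strain), namely Mrpl34, Mrpl42, Mrps10 (ILMN_2691360), Mrps11 and Mrps34.

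**Figure D4:**
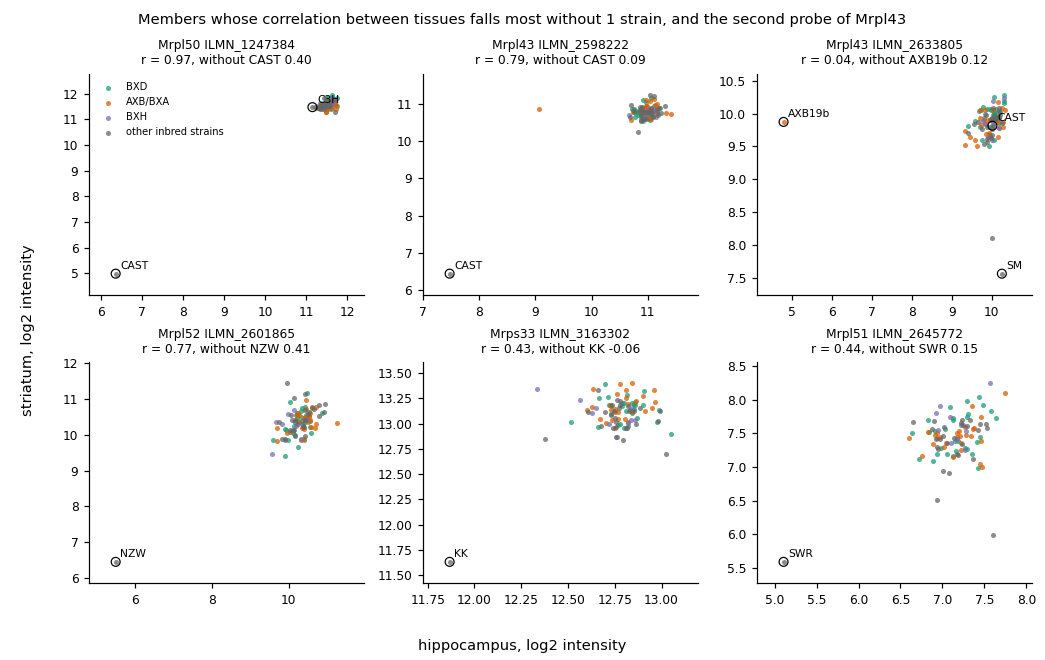
Log2 intensity in striatum (y axis) against hippocampus (x axis), 1 point per strain coloured by strain set, for the 5 member probes whose r fell by over 0.2 without 1 strain and for the other Mrpl43 probe, with the strains named. CAST lies alone in the lower left for Mrpl50 and for 1 probe of Mrpl43 but inside the cloud for the other, where AXB19b and SM lie outside instead.

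CAST as a whole stood apart for members about as often as for other probes. It was the farthest strain from the median for 7 members in hippocampus (4.98% of all probes) and 8 in striatum (6.39%), and without AXB19b, SM and NZW for 12 (11% of all) and 11 (9.08%). It lay over 1 log2 below the median for 8 members in hippocampus (7.26% of all) and 6 in striatum (7.55%). It lay over 1 log2 above the median for 0 members in hippocampus (3.04% of all) and 1 in striatum (Mrpl3, 3.17%). Those low in both tissues were Mrpl27, Mrpl37, Mrpl43, Mrpl50, Mrps11 and Mrps18c. Mrps18c, a small subunit protein, had 9.39 and 9.34 in CAST, where the lowest of the others had 10.18 in each tissue. All 21 members for which CAST was over 0.5 log2 from the median in both tissues had the same sign in both, as did 2104 of 2169 such probes of the whole table. C3H was the farthest strain for 1 member in hippocampus (3.37% of all) and 0 in striatum (0.111%), and without AXB19b, SM and NZW for 5 in hippocampus (9.41%). C3H was below the median for 73 of 94 members in hippocampus and 68 in striatum, with median distances of -0.21 and -0.07 (0.02 and 0 over all probes). The share of all probes with C3H below the median was not computed, and the doubt over the match of the C3H arrays holds here too.

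For several genes the distance of CAST held for only 1 probe. Mrpl48 was otherwise, with CAST between -0.49 and -0.88 from the median at all 3 probes in both tissues. For Mrpl37 it was -1.37 in hippocampus and -1.79 in striatum at ILMN_2751709 but 0.03 and -0.14 at ILMN_1254715. For Mrps11 it was -1.06 and -1.05 at ILMN_2681946 but -0.05 and 0.11 at ILMN_2786708. For Mrpl33 it was -0.76 and -0.73 at ILMN_2629835 but 0.22 and 0.14 at ILMN_1229110. For Mrpl3 it was 0.94 and 1.04 at ILMN_1231390 but 0.13 and -0.07 at ILMN_2643264. Mrpl47 even had opposite signs, -1.08 and -0.89 at ILMN_2723579 and 0.39 and 0.88 at ILMN_1226238. The probe sequences were not used here, and whether the bases of CAST or of another strain differ under a probe was not tested.

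**Figure D5:**
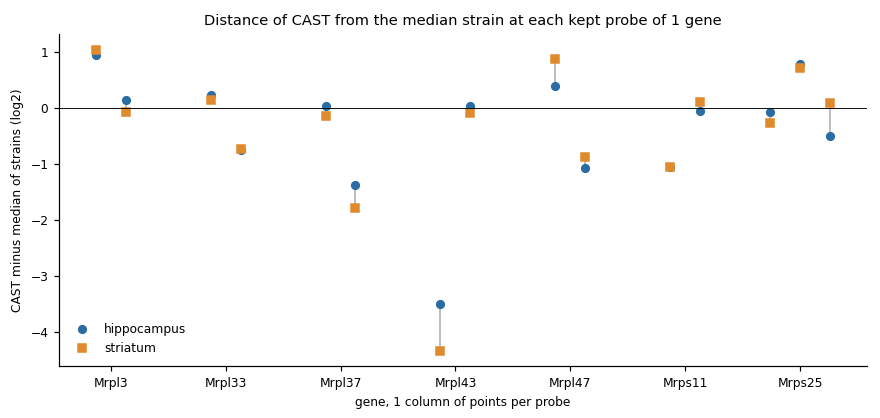
Difference of CAST from the median strain (y axis, log2) at each kept probe of the genes with several kept probes, circles for hippocampus and squares for striatum, shown for genes with a distance over 0.7 at a probe in both tissues (Mrpl48, with its levels, is left out). At most genes a column far from 0 stands beside another near 0, and at Mrpl47 the columns lie on either side of 0.

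Different probes of 1 gene agreed for some members and not for others. The 20 genes with several kept probes gave 31 pairs of probes. In hippocampus 16 pairs were positively correlated across strains (51.6%, against 63.3% of all 3701 same-gene pairs) and 5 negatively (16.1%, against 9.81%). In striatum 17 were positively (54.8%, against 64.9%) and 3 negatively correlated (9.68%, against 7.67%), with adjustment over all same-gene pairs. The median r was 0.35 in hippocampus (0.37 over all pairs) and 0.23 in striatum (0.40). Without AXB19b, SM and NZW the counts were 16 positive (62.7% of all) and 5 negative (3.97%) in hippocampus and 18 positive (66.3%) and 3 negative (5.51%) in striatum.

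Probes agreed in both tissues for Mrpl33 (r = 0.70 and 0.71), Mrps7 (0.54 and 0.44), Mrps26 (0.55 and 0.43), Mrps33 (0.40 and 0.60), for ILMN_2732565 and ILMN_2829295 of Mrps31 (0.74 and 0.83), for ILMN_1239113 and ILMN_2680111 of Mrps25 (0.71 and 0.64) and for ILMN_2628672 and ILMN_2701363 of Mrpl49 (0.70 and 0.71), the values being those in hippocampus and striatum. Their adjusted p was at most 9.65e-05, the rho lay between 0.37 and 0.73 and the permutation p was at most 0.0095. The other probe of Mrps10, ILMN_2691360, was lower in the strains at the low level of ILMN_2841840, with medians of 9.02 and 9.12 in hippocampus and striatum against 9.75 and 9.72 in the strains at the high level. The third probe of Mrps25, ILMN_1246044, was correlated with neither of the others in either tissue. All 3 pairs of Mrps31 were positive in striatum, and only ILMN_2732565 with ILMN_2829295 in hippocampus.

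Mrpl10 had probes that ran in opposite directions between the levels of 1 of them. Over all strains their r was -0.55 in hippocampus and -0.61 in striatum. By rank this was weak, with rho = -0.16 and -0.15 (permutation p for rho = 0.114 and 0.132). In the 18 hippocampus strains at the low level of ILMN_2822622, the other probe, ILMN_2822621, was higher by 0.47 log2 in the median than in the 81 strains at the high level (12.01 against 11.53 without AXB19b, SM and NZW). In striatum the medians were 11.99 at the low level and 11.62 at the high level. So the strains with a lower signal at ILMN_2822622 had a higher median signal at ILMN_2822621 in both tissues, although the ranges overlapped. Within the high level the probes were positively correlated (r = 0.48 in hippocampus and 0.60 in striatum). Within the low level r was -0.66 in hippocampus (-0.36 without AXB19b, SM and NZW) and 0.05 in striatum. Probe ILMN_2929031 of Mrpl49 was negatively correlated with ILMN_2634295 in both tissues (r = -0.50 and -0.33, adjusted p = 4.31e-07 and 0.00155, rho = -0.40 and -0.32, permutation p at most 0.00118).

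Other pairs depended on the arrays that stood apart or differed in their call between tissues. The probes of Mrpl3 had r = 0.53 in hippocampus and 0.23 in striatum, but rho was -0.11 and -0.13, and without AXB19b, SM and NZW r was -0.10 and -0.18. The probes of Mrpl37 had r = -0.35 in hippocampus, and 0.01 without these arrays. Those of Mrpl18 had r = -0.26 in both tissues, and -0.18 and -0.11 without them, where they no longer passed (adjusted p = 0.106 and 0.348). Those of Mrpl13 were negatively correlated in hippocampus (r = -0.27, adjusted p = 0.0091) and had r = 0.21 in striatum (adjusted p = 0.0561). Mrpl43 (0.45 and 0.02), Mrps11 (0.38 and 0.08), Mrps18b (0.55 and -0.12) and Mrps5 (0.35 and 0.01) passed in hippocampus only. Mrpl47 (0.07 and 0.31), Mrpl51 (0.10 and 0.22) and ILMN_2628672 with ILMN_2634295 of Mrpl49 (0.07 and 0.24) passed in striatum only. The difference between the tissues was not tested. Without AXB19b, SM and NZW, Mrps11 (0.58 and 0.44) and Mrps5 (0.39 and 0.23) passed in both tissues, while Mrpl43 (0.11 in hippocampus) and Mrpl51 (0.18 in striatum) no longer passed. For Mrpl49, ILMN_2634295 then passed in both tissues with ILMN_2628672 (0.41 and 0.45) and with ILMN_2701363 (0.45 and 0.33). ILMN_2929031 was then negatively correlated with ILMN_2628672 in both tissues (-0.27 and -0.24) and with ILMN_2701363 in hippocampus (-0.28).

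As a group, the members moved together weakly. With 1 probe per gene (69 genes, 2346 pairs), the mean correlation between members across strains was 0.10 in hippocampus and 0.07 in striatum without AXB19b, SM and NZW, against 0.00184 and 0.000663 between all probes. With all strains the values were 0.08 and 0.06 (0.02 and 0.00142 between all probes), and AXB19b made up 92.2% of the first principal component of the members in hippocampus. In striatum the mean of the members was correlated with that of oligodendrocyte markers without these arrays (r = 0.47, rho = 0.41 over 5 genes) and had r = 0.36 but rho = -0.06 with striatal neuron markers. In hippocampus r with the 7 marker lists lay between -0.24 and 0.29. The part of cell composition in the values was not tested, and in whole tissue fewer cells of a type and less RNA per cell cannot be told apart.

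Genes of the same machinery under other names did not all behave alike. Over all strains, ribosome proteins and translation factors had larger shares of correlated probes than the whole table, while assembly proteins were near its share. Of the mitochondrial ribosome proteins with other symbols, 5 of 6 probes were positively correlated between tissues. These 6 probes measured only 3 genes, and most were probes of Dap3. In both tissues 4 of them had 2 levels (4.21% of all probes). They measured Dap3, a GTP-binding small subunit protein, and Ptcd3, a pentatricopeptide repeat protein. Probe ILMN_2646230 of Dap3 had 2 levels in hippocampus alone. Of the mitochondrial translation factors, 9 of 13 probes were correlated (69.2%). Only 1 of these 13 had 2 levels in both tissues, ILMN_2955322 of Mtrf1, a release factor of the mitochondrion. The other Mtrf1 probe, ILMN_2646556, had levels in neither tissue and an r of 0.20 between them, which did not pass. Of the proteins that assemble the mitochondrial ribosome and modify its RNA, 11 of 26 were correlated, and of the cytosolic ribosomal proteins 25 of 65, shares of 42.3% and 38.5%, against 43.1% of all probes. Without AXB19b, SM and NZW the counts were 16 of 26 (61.5%) and 37 of 65 (56.9%), against 57.9% of all probes. The ribosome proteins then stayed at 5 of 6 and the translation factors at 9 of 13 (69.2%), so that the translation factors lay nearer to the whole table than over all strains. The assembly proteins had 2 levels in both tissues at 0 of 26 probes and the cytosolic ribosomal proteins at 5 of 65. Those 5 measured Rpl21, Rpl29, Rps15a and Rps3. The median r was 0.32 for translation factors, 0.20 for assembly proteins and 0.16 for cytosolic ribosomal proteins.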

How the data were processed

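The authors hybridized total RNA of each tissue to Illumina MouseRef-8 v2.0 arrays and normalized with the rank invariant option of BeadStudio (version not given in the sources used here). In the deposited tables each probe has an intensity and its detection p-value on every array. In hippocampus 100% of the deposited intensities equal the authors' processed table, and in striatum 0.0763% do. Whether the hippocampus intensities were already normalized was not tested. Background was corrected from the detection p-values (normexp, offset 16) and arrays were quantile normalized within a tissue and log2 transformed (limma 3.58.1, R 4.3.3). Other steps used Python 3.11.15, scipy 1.17.1, numpy 2.4.6 and pandas 2.3.3. A filter on dim probes (detection p under 0.01 on 20% or more of a tissue's arrays, for both tissues) kept 11746 probes. Arrays carry no depth, and their number limits the precision. Between 22.4% and 49.5% of probes were detected per hippocampus array and between 35.2% and 46.4% per striatum array. Gene names and chromosomes come from the array annotation through RefSeq (GRCm38.p6), which gave 1 gene for 23978 probes and none for 1719. Methods were tested on simulated data.

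Named genes are all members with 2 levels, with r moved by over 0.2 without CAST and C3H, among the 10 highest or 5 lowest r, or with several kept probes. Any further name was picked once its values were known. The members and lists were chosen with earlier results of these data known. Alternatives were the authors' processed values, no background correction, median centring, other filters on dim probes, Spearman's rho, other distances between levels, centring of strain sets, and leaving out strains.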

Additional observations from a re-analysis of the deposited data

How the results depend on the processing

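Most results kept their direction and their side of the threshold, namely 779 values of r between tissues, 420 of r between probes of a gene and 209 level calls over all alternatives. Of the values of r between tissues 33 no longer passed, 42 newly passed and 15 changed sign, and 29 values of r between probes no longer passed. The count of correlated members was 36 over RI strains alone, with AXB19b among them (26.1% of all probes). CAST was farthest from the median in hippocampus for 4 members under median centring (4.74% of all probes), 12 without AXB19b, SM and NZW (11%), and 13 without the strains whose arrays did not match best (12.3%). Members with 2 levels numbered 10 to 19 in hippocampus and 10 to 16 in striatum over the alternatives. With the main settings they were 14 (6.11% of all probes) and 13 (8.59%). The share of all probes was not computed under the alternatives, so these ranges describe the members only. The cause of these changes was not tested.

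Values of r that changed sign were as follows, where unmatched strains are those whose arrays did not match best. Between tissues, Mrps33 (ILMN_1214937) had 0.0913 with the authors' processed values, 0.0504 with median centring, 0.221 as rho, 0.280 without AXB19b, SM and NZW, 0.275 without CAST and C3H as well, and 0.320 without the unmatched strains. Mrpl4 had 0.0391 with median centring, 0.0393 as rho, 0.0593 without AXB19b, SM and NZW and 0.0424 without CAST and C3H as well. Over RI strains alone r was -0.0390 for Mrpl53, -0.170 for Mrps10 (ILMN_2691360), -0.0805 for Mrpl51 (ILMN_2831273) and -0.0759 for Mrps33 (ILMN_3163302), which had -0.0617 without KK. Between probes, Mrpl13 had 0.0851 in hippocampus with the authors' processed values. Mrpl3 in hippocampus had -0.105 as rho, -0.0984 without AXB19b, SM and NZW, -0.101 without CAST and C3H as well, and -0.147 without the unmatched strains. In striatum it had -0.130 as rho, -0.160 over RI strains, -0.176 and -0.164 without those arrays, and -0.146 without the unmatched strains. Mrpl37 in hippocampus had 0.179 as rho, 0.00588 and 0.00904 without those arrays and 0.0147 without the unmatched strains.

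The tissues were compared within strains throughout. Beyond this pairing by strain, no paired analysis was possible because the labels give no replicate numbers that the tissues share. The settings that left out AXB19b, SM, NZW, CAST and C3H together, and each strain in turn, were chosen after seeing the data. Low levels near background, as for Mrpl35 and Mrps27, are limited by the signal over background.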
